A study of Gallus gallus with 4 samples.

Results

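Axon guidance ligands and receptors were examined in the dermal papilla complex of dorsal feathers in the growing stage. The papilla is mesenchyme that sits at the bottom of the follicle and signals to the epithelium above it. All genes of the expression table were taken whose names begin as those of the ephrins, Eph receptors, semaphorins, plexins, neuropilins, slits, robos, netrins or UNC5 receptors. This gave 54 of the 15386 genes in the table. The tissue came from White Leghorn chickens, was untreated and was dissected into an anterior and a posterior side, which gave 2 libraries each. Neither the age of the birds nor whether the libraries came from separate birds is stated in the labels, so the p-values reflect the spread of these 4 samples alone, and that spread may be technical. Expression was given by the authors as RPKM, a read density scaled to gene length and library size, which allows levels to be compared between genes of different length.

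The 4 ligand systems were named for their part in steering growing axons, and each also acts outside the nervous system. Ephrins are held at the cell surface and bind Eph receptor tyrosine kinases on neighbouring cells, with signals passing into both cells, and are best known for keeping cell groups apart. Semaphorins are secreted or membrane-bound and act mostly through plexins, which the secreted class 3 proteins reach with neuropilins as co-receptors. Slits are secreted and repel cells that carry robo receptors, and netrins attract or repel cells depending on whether DCC-type or UNC5 receptors are present. In skin these systems are known for guiding nerve fibres and vessels and for shaping cell contacts.

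The number of reads behind the RPKM values is unknown. Steps between low values placed the depth of posterior library 1 at 77.1% of that of anterior library 1, and the depth of the other libraries at 99.6% to 99.9%. Posterior library 1 stood apart from the rest. The 6 smooth muscle markers found of 8 listed, such as MYH11 and DES, were all highest in it, as were 26.5% of all tested genes. Their summed level was 154 and 128 RPKM in anterior libraries 1 and 2 against 3703 and 70.0 RPKM in posterior libraries 1 and 2. Several results that rest on that library are therefore given with and without it, though not those of every gene. All 9 listed dermal papilla markers were detected and tested, and they did not move together. CORIN measured 6.86 and 2.13 RPKM on the anterior side, against 0.308 and 0.562 RPKM on the posterior side, and ALPL 37.2 and 33.7 RPKM anteriorly and 3.46 and 19.3 RPKM posteriorly. DCN ran the other way, at 749 and 492 RPKM anteriorly and 1561 and 624 RPKM posteriorly, and LUM was likewise highest in posterior library 1. Of the 9, 4 were at least 1.5-fold higher on the anterior side without overlap, or 44.4%, against 5.9% of all tested genes. Without posterior library 1 these were 3, where 3.83% of all tested genes were. VCAN was then higher posteriorly by that measure, as were 2.07% of all tested genes. CORIN, among the 4, reached 1 RPKM on the anterior side alone, and 1 RPKM in at least 2 libraries was required for testing. Keratinocyte markers were also abundant, with KRT14 at 369 to 1077 RPKM. In such bulk tissue, fewer cells of a type and less RNA per cell cannot be told apart.

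Of the 54 guidance genes, 41 reached at least 1 RPKM in at least 2 libraries and were tested with all 10939 such genes. None passed limma's test at an adjusted p under 0.05, where 0% of all tested genes passed. None had an unadjusted p under 0.05 either, where 0.942% of all tested genes did. The smallest unadjusted limma p among the guidance genes was 0.0651, for SEMA5B, and adjusted p values ran from 0.964 to 0.988. The smallest two-sided p that an exact permutation test allows with 2 libraries a side is 1 in 3. Guidance genes passed under 1 of the alternatives. With posterior library 2 left out, so that posterior library 1 alone stood for its side, 2.07% of all tested genes passed and 4 guidance genes did, EFNB1, NRP2, SEMA3G and SEMA3D. What follows is therefore a description of levels, and a p above the threshold is no evidence of equal levels.

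Most guidance genes had a higher mean in anterior tissue. The log2 difference on the scale of log2(RPKM + 1), anterior minus posterior, was positive for 33 of the 41 tested genes, or 80.5%, and for 64.6% of all tested genes. Its median was 0.35 over the guidance genes and 0.11 over all tested genes. Both anterior libraries lay above both posterior libraries, with means at least 1.5-fold apart, for 10 of the 41 genes, or 24.4%, and for 5.9% of all tested genes. These 10 were EFNB1, EPHA2, EPHA4, EPHB1, EPHB2, SEMA5B, NRP2, PLXNA1, PLXNC1 and UNC5C, the last tested only because its anterior libraries reached 1 RPKM. By the same rule a single gene, SEMA3A, was at least 1.5-fold higher on the posterior side, or 2.44% of the guidance genes, against 1.44% of all tested genes. Melanocyte markers had higher anterior means as well. All 6 listed were found and none was at 0, and the 4 tested all had a positive log2 difference, with a median of 1.205 and no adjusted limma p under 0.05. PMEL, a structural protein of pigment granules, measured 8.56 and 11.03 RPKM on the anterior side, against 0.577 and 3.47 RPKM on the posterior side. All 4 were lowest in posterior library 1, as were 54.5% of all tested genes. By the rule above 3 of the 4 were at least 1.5-fold higher anteriorly, where 5.9% of all tested genes were. The same 3 remained so without posterior library 1, where 3.83% of all tested genes did. MITF, the most abundant of the 6, was the exception, at 15.9 and 18.1 RPKM anteriorly and 13.7 and 19.6 RPKM posteriorly. Its sides overlapped, with a log2 difference of 0.05. The summed level of the 6, with MITF included, was 30.8 and 39.0 RPKM anteriorly and 15.5 and 26.3 RPKM posteriorly. The part of pigment cells or of papilla cells in the guidance levels was not tested.

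Much of this difference lay in posterior library 1. It held the lowest value of 32 of the 41 genes, or 78%, while it was the lowest library for 54.5% of all tested genes. When it was left out, the median log2 difference over the guidance genes was 0.06 and that over all tested genes 0.02. Both anterior libraries were then above posterior library 2, with an anterior mean at least 1.5-fold higher, for 4 genes, EPHA2, EPHA4, SEMA5B and UNC5C. That was 9.76% of the guidance genes, and 3.83% of all tested genes. EPHA5 was the 1 gene higher in posterior library 2 by this measure, where 2.07% of all tested genes were. Anterior library 2 lay close to posterior library 2 for EPHA2, at 2.71 against 2.44 RPKM, and for EPHA4, at 2.06 against 1.90 RPKM. UNC5C was tested through its anterior libraries alone. The count of 10 changed with the other libraries as well. It was larger without anterior library 1, anterior library 2 or posterior library 2, but 1 library left on a side overlaps less readily. The share of all tested genes was not counted for those omissions. The plot of the side ratio with and without posterior library 1 shows how far each gene moved.

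**Figure D1:**
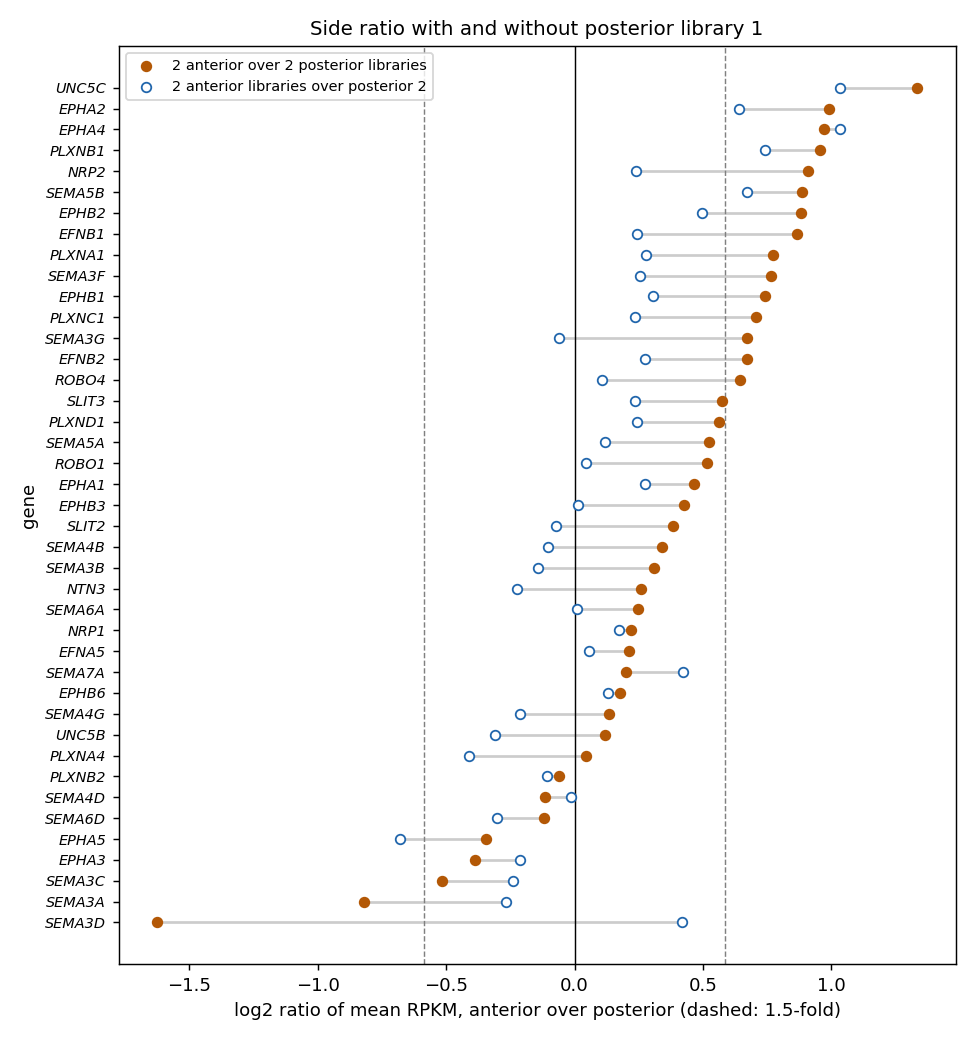
Log2 ratio of mean RPKM, anterior over posterior, for the 41 tested guidance genes, with all 4 libraries (filled points) and with posterior library 2 alone on the posterior side (open points). The dashed lines mark a 1.5-fold ratio in either direction. Without posterior library 1, 33 of the 41 ratios lie nearer to 0 and 9 change side, among them SEMA3D and SEMA3G.

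Among the ephrins, the transmembrane ligand EFNB1 was the most abundant and the most uneven. EFNB1 measured 79.9 and 78.9 RPKM in anterior libraries 1 and 2 against 20.1 and 67.1 RPKM in posterior libraries 1 and 2. The anterior pair agreed closely, and the posterior pair differed 3.34-fold. The means were 79.4 ± 0.743 RPKM on the anterior side and 43.6 ± 33.2 RPKM on the posterior side (SD, n = 2 each), a log2 difference of 1.09 (standard error 0.56, limma adjusted p = 0.964). Against posterior library 2 alone the anterior mean was 1.18-fold higher. EFNB2, the ephrin known for marking arteries, measured 19.6 and 11.3 RPKM on the anterior side, against 6.63 and 12.8 RPKM on the posterior side. Its sides overlapped, with a log2 difference of 0.63 (standard error 0.41, limma adjusted p = 0.964). EFNA5, which is tethered to the membrane by a lipid anchor, was steady at 7.35 and 7.66 RPKM anteriorly and 5.73 and 7.21 RPKM posteriorly. All 3 ephrins were lowest in posterior library 1, as were 54.5% of all tested genes. The median log2 difference of the 3 was 0.63, or 0.21 without that library.

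The B-class receptors, which bind these transmembrane ephrins, were also lowest in posterior library 1, though EPHB6 only by little. The 4 EPHB genes together summed to 32.0 and 28.5 RPKM on the anterior side, against 15.0 and 26.8 RPKM on the posterior side. Each was lowest in posterior library 1, as were 54.5% of all tested genes. EPHB2 measured 8.02 and 5.92 RPKM on the anterior side, against 2.62 and 4.93 RPKM on the posterior side, a log2 difference of 0.77 (standard error 0.34, limma adjusted p = 0.964). EPHB1 measured 5.39 and 4.10 RPKM anteriorly and 1.84 and 3.84 RPKM posteriorly, with a log2 difference of 0.62 (standard error 0.35). For both genes the sides did not overlap, but anterior library 2 and posterior library 2 were close for EPHB1. Without posterior library 1 the log2 difference was 0.41 for EPHB2 and 0.24 for EPHB1. EPHB3, the most abundant Eph receptor by mean, measured 14.6 and 14.9 RPKM anteriorly and 7.38 and 14.6 RPKM posteriorly, so posterior library 2 lay within the anterior range. Its log2 difference was 0.46 (standard error 0.36, limma adjusted p = 0.964). EPHB6, whose kinase domain is inactive, varied least, at 3.98 and 3.51 RPKM anteriorly and 3.20 and 3.42 RPKM posteriorly.

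The A-class receptors were less uniform, and several were high in anterior library 1 alone. EPHA2, a receptor of epithelial cells, measured 4.90 and 2.71 RPKM on the anterior side, against 1.39 and 2.44 RPKM on the posterior side. Its log2 difference was 0.71 (standard error 0.36, limma adjusted p = 0.964), and the anterior mean was 1.56-fold that of posterior library 2. EPHA4, which binds ephrins of both classes, measured 5.72 RPKM in anterior library 1 and 2.06 RPKM in anterior library 2, against 2.06 and 1.90 RPKM in posterior libraries. The sides of EPHA4 were thus barely separate, and its log2 difference of 0.61 (standard error 0.42) came from anterior library 1, without which it was 0.04. EPHA1 measured 12.4 and 7.92 RPKM on the anterior side, against 6.34 and 8.39 RPKM on the posterior side, a difference of 0.40 (standard error 0.31). EPHA7, below the filter for testing, measured 0.968 and 0.151 RPKM anteriorly and 0.402 and 0.395 RPKM posteriorly.

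The summed level of the 8 keratinocyte markers, all found, was also highest in anterior library 1, at 2800 and 1012 RPKM on the anterior side, against 1525 and 1081 RPKM on the posterior side. Among them KRT5 measured 796 and 216 RPKM anteriorly and 182 and 266 RPKM posteriorly. Of the 8 markers, 6 were highest in anterior library 1 and no marker of the list was at 0. The other 2, EPCAM and CLDN1, were highest in posterior library 1, as were 26.5% of all tested genes. The share of all tested genes that were highest in anterior library 1 was not counted. EPCAM measured 134 and 101 RPKM anteriorly and 172 and 88.9 RPKM posteriorly, and CLDN1 71.1 and 37.9 RPKM anteriorly and 75.4 and 49.0 RPKM posteriorly. The part of epithelial cells in the levels of EPHA4, EPHA2 and EPHA1 was not tested.

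EPHA5 and EPHA3 were the tested A-class receptors with lower anterior means. EPHA5 measured 2.47 and 2.80 RPKM on the anterior side, against 2.47 and 4.22 RPKM on the posterior side, so only posterior library 2 was high. EPHA3 measured 1.02 and 0.795 RPKM anteriorly and 1.32 and 1.05 RPKM posteriorly, a log2 difference of -0.20 (standard error 0.27). EPHA6, EPHA8 and EPHA10 were at or near 0, none above 0.0386 RPKM in any library. Over the 9 tested Eph receptors the median log2 difference was 0.46, or 0.35 relative to all tested genes, and it was 0.22 without posterior library 1.

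**Figure D2:**
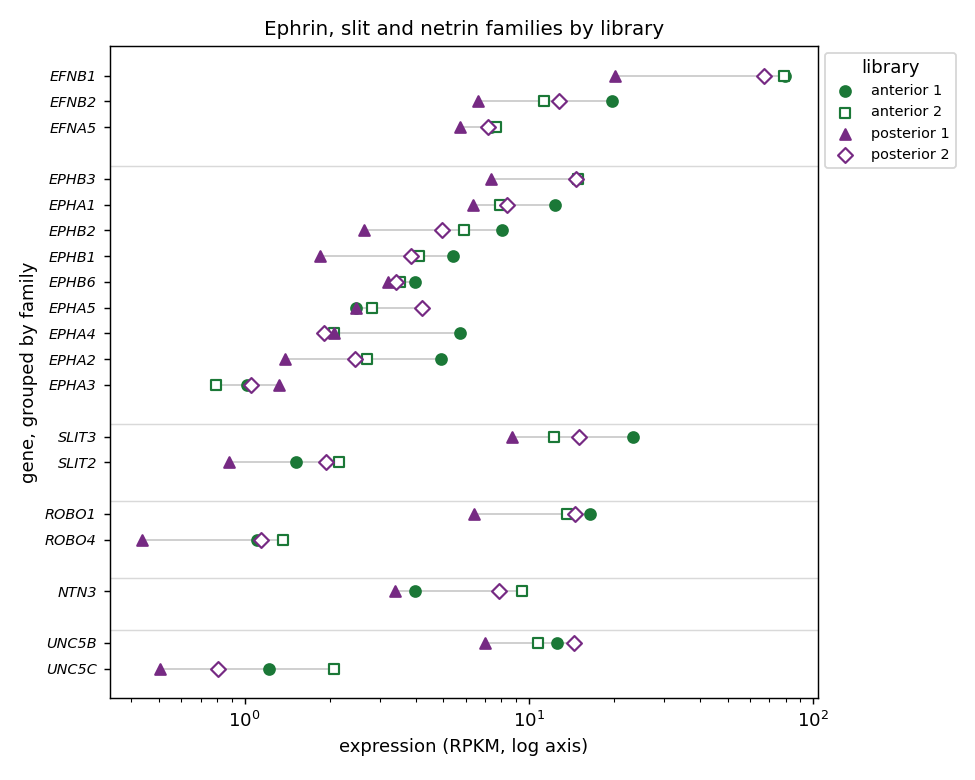
Expression in RPKM on a log axis of the tested ephrins, Eph receptors, slits, robos, netrin and UNC5 receptors, with 1 symbol per library. Posterior library 1 (filled triangles) is the leftmost symbol for EFNB1, EFNB2, EPHB1, EPHB2, EPHB3, ROBO1 and both slits, while EPHA4 stands out in anterior library 1.

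Of the 14 tested semaphorins, 8 were lowest and 4 were highest in posterior library 1. These shares of 57.1% and 28.6% were near those of all tested genes, at 54.5% and 26.5%. Over all 41 guidance genes 5, or 12.2%, were highest there. The median log2 difference of the 14 semaphorins was 0.17, or 0.06 relative to all tested genes. This semaphorin median turned negative, at -0.04, without posterior library 1.

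Class 3 semaphorins, the secreted ones, made up most of the semaphorin RPKM, and the libraries differed more in its composition than in its total. Their summed level was 69.7 and 83.4 RPKM on the anterior side, against 57.9 and 77.9 RPKM on the posterior side. SEMA3G, known from vessels, was the most abundant in 3 libraries, at 40.3 and 52.3 RPKM on the anterior side, against 9.82 and 48.3 RPKM on the posterior side. It made up 57.8% and 62.7% of the class on the anterior side, against 17.0% and 62.0% in posterior libraries. Its log2 difference was 1.02 (standard error 0.71, limma adjusted p = 0.964), and the anterior mean was 0.959 of posterior library 2. SEMA3F, a ligand of NRP2 that repels axons and vessels, measured 9.56 and 14.2 RPKM anteriorly and 4.02 and 9.97 RPKM posteriorly. SEMA3B measured 1.59 and 2.11 RPKM anteriorly and 0.946 and 2.04 RPKM posteriorly. For these 3 genes posterior library 2 lay within the anterior range and posterior library 1 lay below it.

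SEMA3D, SEMA3A and SEMA3C ran the opposite way and were highest in posterior library 1. SEMA3D measured 4.30 and 3.33 RPKM on the anterior side, against 20.7 and 2.85 RPKM on the posterior side, and its share of the class was 6.16% and 3.99% on the anterior side, against 35.8% and 3.66% in posterior libraries. It was thus the most abundant class 3 semaphorin in posterior library 1 and lowest in posterior library 2. SEMA3A, which acts through NRP1 and is the best-known repellent of sensory axons, measured 2.85 and 2.79 RPKM on the anterior side, against 6.55 and 3.39 RPKM on the posterior side. Both posterior libraries lay above both anterior libraries for SEMA3A, with a log2 difference of -0.59 (standard error 0.34, limma adjusted p = 0.964), or -0.20 without posterior library 1. SEMA3C, a guide of vessels and neural crest cells, measured 9.98 and 7.76 RPKM anteriorly and 14.9 and 10.5 RPKM posteriorly, again with the posterior libraries above the anterior ones. Its means were 8.87 ± 1.57 RPKM on the anterior side and 12.7 ± 3.13 RPKM on the posterior side (SD, n = 2 each). SEMA3E, the class member that binds PLXND1 without a neuropilin, measured 1.16 and 0.921 RPKM anteriorly and 0.940 and 0.902 RPKM posteriorly. It was level over the 4 libraries and was not tested.

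The split of the class by library matched a split by position for the 6 tested genes, but not for SEMA3E. In the RefSeq gene table of another chicken assembly (bGalGal1.mat.broiler.GRCg7b), used for gene order only, SEMA3A has SEMA3D and SEMA3E as its immediate protein-coding neighbours. SEMA3C lies on the same chromosome, with 3 protein-coding genes between it and SEMA3E. SEMA3B, SEMA3F and SEMA3G lie together on another chromosome, with 3 genes between SEMA3B and SEMA3F and 7 between SEMA3F and SEMA3G. The tested genes of the first group (SEMA3A, SEMA3C and SEMA3D) were highest and those of the second group were lowest in posterior library 1. SEMA3E, of the first group, was not highest there, at 0.940 RPKM against 1.16 RPKM in anterior library 1. The grouping was noticed after the values were seen and was not tested. The part of smooth muscle in the levels of SEMA3A, SEMA3C and SEMA3D was not tested.

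**Figure D3:**
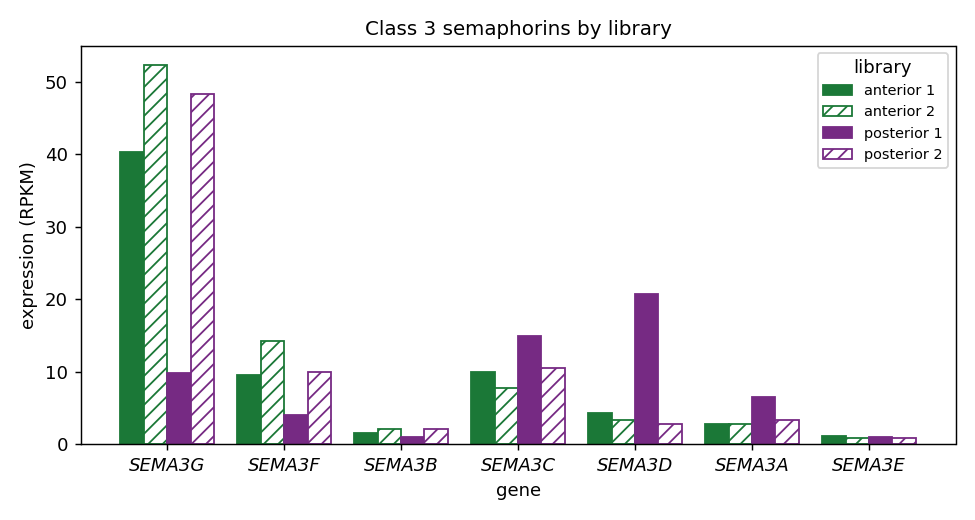
Expression in RPKM of the 7 class 3 semaphorins in each library, with genes placed by chromosomal group (SEMA3G, SEMA3F and SEMA3B left, the others right). SEMA3G is the tallest bar in both anterior libraries and in posterior library 2, at 40.3 to 52.3 RPKM, whereas SEMA3D at 20.7 RPKM is the tallest in posterior library 1.

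Among the membrane-bound semaphorins, SEMA5B, a transmembrane protein with thrombospondin repeats, had the smallest p of all guidance genes, with 4.35 and 3.26 RPKM on the anterior side, against 1.73 and 2.39 RPKM on the posterior side. Its sides did not overlap, its log2 difference was 0.65 (standard error 0.28), and the difference was 0.49 without posterior library 1. SEMA5A, of the same class, was more abundant but spread widely within both sides, at 26.2 and 13.4 RPKM anteriorly and 9.32 and 18.2 RPKM posteriorly. Its log2 difference was 0.49 (standard error 0.45, limma adjusted p = 0.964), or 0.04 without posterior library 1.

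SEMA4D, a ligand of PLXNB1 known from immune cells, measured 6.57 and 5.32 RPKM on the anterior side, against 6.87 and 6.001 RPKM on the posterior side. SEMA4B measured 4.11 and 5.11 RPKM anteriorly and 2.32 and 4.96 RPKM posteriorly, and SEMA4G 2.75 and 4.50 RPKM anteriorly and 2.40 and 4.21 RPKM posteriorly. SEMA4D was level over the 4 libraries, and the other two were lowest in posterior library 1. SEMA6D, a transmembrane ligand of A-type plexins, was level as well, at 8.996 and 10.5 RPKM on the anterior side, against 9.16 and 12.0 RPKM on the posterior side. SEMA6A measured 2.75 and 2.48 RPKM anteriorly and 1.81 and 2.60 RPKM posteriorly. SEMA7A, lipid-anchored and a ligand of PLXNC1 and of beta1 integrin, measured 4.12 and 3.61 RPKM anteriorly and 3.84 and 2.88 RPKM posteriorly. SEMA6B and SEMA6C were below 1 RPKM, within 0.235 to 0.710 RPKM over all libraries.

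The neuropilins, co-receptors shared with VEGF, parted in posterior library 1. NRP2 measured 25.1 and 20.5 RPKM on the anterior side, against 5.03 and 19.3 RPKM on the posterior side, a log2 difference of 1.10 (standard error 0.58, limma adjusted p = 0.964). Against posterior library 2 alone the anterior mean of NRP2 was 1.18-fold higher. NRP1 measured 26.9 and 20.9 RPKM on the anterior side, against 19.8 and 21.2 RPKM on the posterior side, a difference of 0.20 (standard error 0.26). The ratio of NRP1 to NRP2 was therefore 1.07 and 1.02 on the anterior side, against 3.95 and 1.10 on the posterior side. Both neuropilins were lowest in posterior library 1, NRP1 only by little. SEMA3B, SEMA3F and SEMA3G were lowest there as well, while SEMA3A, SEMA3C and SEMA3D were highest there. A match of ligands to 1 neuropilin or the other was not tested.

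Plexins are the signalling receptors of the family, with a cytoplasmic domain that acts on small GTPases. PLXNA1, a partner of the neuropilins, measured 8.53 and 7.01 RPKM on the anterior side, against 2.70 and 6.40 RPKM on the posterior side, a log2 difference of 0.74 (standard error 0.39, limma adjusted p = 0.964). PLXNC1 measured 4.74 and 4.52 RPKM anteriorly and 1.73 and 3.93 RPKM posteriorly, with a log2 difference of 0.62 (standard error 0.36). For both plexins the sides did not overlap, and the anterior mean was 1.21-fold and 1.18-fold that of posterior library 2. PLXND1, the endothelial plexin, measured 15.4 and 11.04 RPKM on the anterior side, against 6.73 and 11.1 RPKM on the posterior side, with overlap. PLXNB1 resembled EPHA4 in being high in anterior library 1 alone, at 3.94 and 1.41 RPKM anteriorly and 1.16 and 1.60 RPKM posteriorly. PLXNB2 measured 10.1 and 6.44 RPKM anteriorly and 8.37 and 8.93 RPKM posteriorly and was the 1 tested plexin with a higher posterior mean. PLXNA4 measured 1.42 and 0.979 RPKM anteriorly and 0.732 and 1.60 RPKM posteriorly, and PLXNA2 stayed within 0.456 to 0.683 RPKM. Over the 8 tested plexins and neuropilins the median log2 difference was 0.54, and it was 0.20 without posterior library 1.

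**Figure D4:**
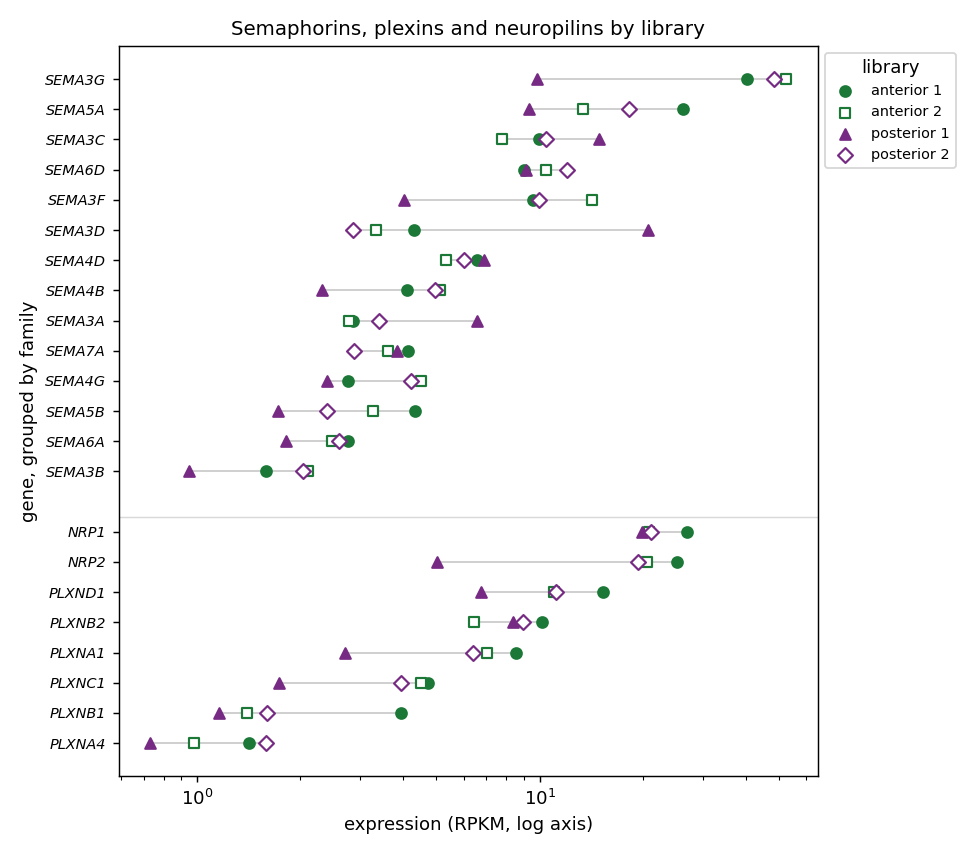
Expression in RPKM on a log axis of the tested semaphorins (upper block) and of the neuropilins and plexins (lower block), with 1 symbol per library. Posterior library 1 (filled triangles) is the rightmost symbol for SEMA3A, SEMA3C, SEMA3D and SEMA4D and the leftmost for SEMA3G, NRP2, PLXNA1 and PLXNC1.

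In the slit system, SLIT3 and ROBO1 were the abundant pair. SLIT3 measured 23.2 and 12.2 RPKM on the anterior side, against 8.73 and 15.0 RPKM on the posterior side, and SLIT2 1.51 and 2.16 RPKM anteriorly and 0.881 and 1.93 RPKM posteriorly. Their log2 differences were 0.52 and 0.26, with standard errors of 0.41 and 0.33, and the sides overlapped for both. SLIT3 exceeded SLIT2 15.3-fold and 5.67-fold on the anterior side, against 9.91-fold and 7.80-fold in posterior libraries. ROBO1, the main slit receptor, measured 16.4 and 13.6 RPKM on the anterior side, against 6.44 and 14.6 RPKM on the posterior side, a difference of 0.57 (standard error 0.40, limma adjusted p = 0.964). Without posterior library 1 its log2 difference was 0.03. ROBO4, the endothelial robo, measured 1.10 and 1.37 RPKM anteriorly and 0.435 and 1.15 RPKM posteriorly, with a log2 difference of 0.35 (standard error 0.32). Other endothelial markers were mixed. PECAM1 measured 39.2 and 33.5 RPKM on the anterior side, against 70.1 and 40.5 RPKM on the posterior side, and VWF 30.7 and 28.5 RPKM anteriorly and 28.2 and 30.9 RPKM posteriorly. The list of 8 endothelial markers, all tested, includes ROBO4 itself. Of the 8, 4 were lowest in posterior library 1, ROBO4 among them, and 4 were highest there. Of all tested genes, 54.5% were lowest and 26.5% highest there. The median log2 difference was 0.39 for the slits and 0.46 for the tested robos, and 0.05 for both without posterior library 1. ROBO3 was near 0, at 0.0162 to 0.0325 RPKM.

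NTN3 was the most abundant netrin by mean, and UNC5B the most abundant of the repellent netrin receptors. NTN1, the classical netrin, measured 2.33 and 0.335 RPKM on the anterior side, against 0.165 and 0.208 RPKM on the posterior side. Both anterior values were above both posterior ones, but a single library reached 1 RPKM and the gene was not tested. NTN3 measured 3.98 and 9.45 RPKM on the anterior side, against 3.37 and 7.84 RPKM on the posterior side, so the difference within each side was larger than that between the sides. Its log2 difference was 0.21 (standard error 0.50, limma adjusted p = 0.967). NTN4, a netrin of basement membranes, measured 0.494 and 0.404 RPKM anteriorly and 1.13 and 0.386 RPKM posteriorly, with the one high value in posterior library 1.

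UNC5C measured 1.22 and 2.07 RPKM on the anterior side, against 0.502 and 0.804 RPKM on the posterior side. Its means were 1.65 ± 0.599 RPKM on the anterior side and 0.653 ± 0.214 RPKM on the posterior side (SD, n = 2 each), with a log2 difference of 0.67 (standard error 0.30, limma adjusted p = 0.964). The anterior mean was 2.52-fold the posterior mean, the widest ratio in the anterior direction among the 41 guidance genes, and 2.05-fold posterior library 2. UNC5C met the filter of 1 RPKM through its anterior libraries alone, the side where it was higher. NTN1, which was not tested, had a wider ratio of 7.13. UNC5B, a receptor of vessels and other tissues, measured 12.6 and 10.8 RPKM on the anterior side, against 7.02 and 14.5 RPKM on the posterior side, with a difference of 0.18 (standard error 0.38). UNC5A measured 0.403 and 0.965 RPKM anteriorly and 0.140 and 0.879 RPKM posteriorly, and UNC5D stayed within 0.178 to 0.387 RPKM. UNC5B exceeded NTN1 in every library, by 5.41-fold and 32.2-fold on the anterior side, against 42.4-fold and 69.6-fold in posterior libraries. These ratios rest on low NTN1 values, at most 0.335 RPKM outside anterior library 1. UNC5B lay closer to the more abundant NTN3, which measured 3.98 and 9.45 RPKM anteriorly and 3.37 and 7.84 RPKM posteriorly.

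Replicate spread was wide on the posterior side. The 2 anterior libraries were at least 1.5-fold apart for 11 of the 41 tested genes, or 26.8%, and for 17.7% of all tested genes. The 2 posterior libraries were at least 1.5-fold apart for 27 of the 41, or 65.9%, and for 45.8% of all tested genes. Proliferation markers were also lowest in posterior library 1, for 6 of 6, as were 54.5% of all tested genes. Their summed level was 243 and 226 RPKM on the anterior side, against 142 and 214 RPKM on the posterior side. The 6 were uneven. MCM3 measured 23.4 and 25.3 RPKM anteriorly and 4.41 and 21.2 RPKM posteriorly. CCNB2 differed little, at 42.7 and 38.2 RPKM anteriorly and 36.7 and 38.4 RPKM posteriorly. The part of cell division or of smooth muscle in the low guidance levels of posterior library 1 was not tested.

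Partner genes of the guidance receptors, such as other ligands, co-receptors and the enzymes that pass the signal to the cytoskeleton, were listed apart from the 54. Of 65 listed, 54 were found and 47 tested. None passed limma's test, and 1 had an unadjusted limma p under 0.05, where 0.942% of all tested genes did. A positive log2 difference was found for 32, or 68.1%, against 64.6% of all tested genes. The median was 0.22, against 0.11 over all tested genes. Posterior library 1 was lowest for 30 of the 47, or 63.8%, against 54.5% of all tested genes. Both anterior libraries lay above both posterior libraries, with means at least 1.5-fold apart, for 6 genes, or 12.8% against 5.9% of all tested genes. None lay so in the posterior direction, where 1.44% of all tested genes did. LIMK1, among the 6, met the filter of 1 RPKM through its anterior libraries alone. DRAXIN, a secreted guidance protein that binds netrin receptors, measured 18.1 and 25.4 RPKM on the anterior side, against 2.41 and 9.31 RPKM on the posterior side, a log2 difference of 1.92 (standard error 0.55, limma adjusted p = 0.964). It was the 1 of the 47 tested partner genes that stayed at least 1.5-fold higher in this way without posterior library 1. Of all tested genes, 3.83% were higher anteriorly by that measure. SRGAP3, a GTPase-activating protein that acts downstream of robo receptors, measured 4.53 and 6.79 RPKM anteriorly and 1.53 and 3.83 RPKM posteriorly. VAV2, an exchange factor that acts downstream of Eph receptors, measured 6.46 and 6.24 RPKM on the anterior side, against 1.48 and 5.997 RPKM on the posterior side. The remaining 3 were the neogenin ligand RGMB, at 1.98 and 1.61 RPKM anteriorly and 1.07 and 1.25 RPKM posteriorly, the kinase FES, at 1.23 and 1.58 RPKM anteriorly and 0.655 and 1.07 RPKM posteriorly, and the cofilin kinase LIMK1, at 1.10 and 1.10 RPKM anteriorly and 0.569 and 0.859 RPKM posteriorly. For all of them but DRAXIN, the anterior mean was less than 1.5-fold above posterior library 2. The netrin receptor NEO1 measured 10.9 and 13.4 RPKM on the anterior side, against 6.16 and 14.5 RPKM on the posterior side. DCC was among the listed genes that were not found, so its level is not known here.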

How the data were processed

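RNA from dissected tissue was extracted with Trizol for TruSeq library preparation, per the labels. The authors deposited RPKM per gene, 1 column per library, under a name that gives Ensembl release 78. TopHat2, Partek and the build galGal4 are named in the submitters' processing notes without versions. The counting of reads to genes is not described in the labels. 

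Log2(RPKM + 1) was analysed, a scale on which fold changes of low genes shrink. A gene entered the fit when 2 or more libraries reached 1 RPKM, which left 10939 genes for limma 3.58.1 in R 4.3.3 (two-sided, eBayes with a mean-variance trend, adjusted by Benjamini-Hochberg, no covariates, 2 residual degrees of freedom). The fit was run on simulated data with 1 spread for all genes and both sides, unlike these data. That run does not measure error rates or power here. Ratios and the 1.5-fold rule use mean RPKM. Relative depth came from the steps between values under 0.3 RPKM. Genes with a mean of at least 1 RPKM on a side are named with each library's value, and those 1.5-fold apart without overlap and the most abundant of each family also with statistics. Other genes were named after their values were seen. The members and the lists of markers and partners were chosen with earlier results of these data known. Of the members, 53 were current RefSeq symbols. Listed genes were matched by symbol or by a unique RefSeq synonym. The alternatives were other pseudocounts, filters and scalings, eBayes without trend, a block for the library number and leaving out each library.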

Additional observations from a re-analysis of the deposited data

How the results depend on the processing

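No guidance gene passed the limma test under any alternative but one. Without posterior replicate 2, which sets posterior library 1 by itself against the anterior side and assumes that it varies like the anterior side, 4 passed (EFNB1, NRP2, SEMA3G and SEMA3D, with log2 differences of 1.93, 1.98, 2.12 and -2.18). That fit called 226 genes and 2 partner genes, and the other fits without a library called 0. The count of guidance genes with an unadjusted limma p under 0.05 was 1 with no filter (UNC5C). It was 19 without posterior replicate 2, the same fit that called 226 genes, and 0 without any other library. The share of all tested genes at that p was not counted for these settings, so the 19 cannot be set against it.

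Guidance genes 1.5-fold higher in anterior tissue without overlap numbered 11 with no filter, 9 after median ratio scaling and 7 after quantile normalization. At a filter of 5 RPKM, which fewer genes pass, they numbered 4, and without a library 4 to 28. Those higher in posterior tissue numbered 2 with no filter, 0 at 5 RPKM, 2 after median ratio scaling, 3 after quantile normalization and 1 to 3 without a library. The shares of all tested genes were counted only for the main setting and without posterior library 1. The semaphorin median was 0.068 after median ratio scaling and 0.0051 after quantile normalization. Without a library it ran from -0.045 to 0.39, and that of the Eph receptors from 0.10 to 0.69. Over the fits without a library, the log2 difference ran from -0.072 to 2.12 for SEMA3G, from -0.057 to 0.58 for SLIT2, from -0.29 to 0.66 for UNC5B and from -0.32 to 0.75 for NTN3. It was negative without posterior replicate 1 for all 4 and without anterior replicate 2 for NTN3, at -0.29 and -0.32. The cause was not tested.

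The names of the columns share the numbers 1 and 2 across sides, but nothing says that they pair the libraries. Deviations of same-numbered libraries correlated at 0.488 over genes. With a replicate block for the number, 2 of all genes passed, 0 of them guidance genes, and 7 guidance genes had an unadjusted limma p under 0.05. The share of all tested genes at that p was not counted. Median ratio scaling moved the median log2 difference of all genes to -0.0044, against 0.11 as deposited, and that of the guidance genes to 0.27. The unknown depth limits genes under 1 RPKM most.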
